A study of Mus musculus with 6 samples.

Results

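The genes that write, maintain and remove DNA methylation were described in mouse blastocysts that were activated or dormant. The set holds 8 genes, Dnmt1, Uhrf1, Dnmt3a, Dnmt3b, Dnmt3l, Tet1, Tet2 and Tet3, taken by name, each through its brightest probeset annotated with exactly 1 gene symbol. Each of the 8 had 1 such probeset, all 8 passed the filter on dim signals (at or above the array's median on at least 2 of 6 arrays), and they are 8 of 14020 genes tested.

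Methylation of cytosine in CG dinucleotides silences promoters, repeats and imprinted alleles. Dnmt3a and Dnmt3b place new methyl groups, helped by Dnmt3l, which has no catalytic activity of its own. Uhrf1 recognises the hemimethylated DNA left by replication and brings in Dnmt1, which copies the mark to the new strand. Tet1, Tet2 and Tet3 oxidise 5-methylcytosine, the first step of active demethylation. The early mouse embryo loses most of its methylation before the blastocyst stage and regains it around implantation. Diapause holds the blastocyst between both events.

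The data are 6 Mouse Gene ST arrays, each hybridised with RNA of 10 blastocysts, and let7g-transgenic mice gave the embryos of all 3 groups. The D4-act-7g group (2 arrays) held blastocysts activated on day 4, the Dor-7g group (2 arrays) blastocysts that were dormant in the mother on day 7, and the DOX-7g group (2 arrays) blastocysts made dormant in culture on day 7 by let-7 that DOX induced. Against D4-act-7g, DOX-7g therefore combines let-7 with culture, DOX and a later day, and Dor-7g combines dormancy with a later day, and these parts cannot be told apart. The sources used here do not name the promoter that drives the transgene. The labels do not say whether the arrays within a group are separate pools of embryos, so p-values measure only the spread between these arrays, which may be technical.

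The microRNA induced in DOX-7g is printed because it defines that group. The mature RefSeq sequence lies at chr9:106178846-106178867 on the plus strand of GRCm38.p6, and the capitals mark the seed, bases 2 to 8, which pairs with target transcripts.
mmu-let-7g-5p: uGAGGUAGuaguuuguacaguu
This seed is shared by 11 mature mouse microRNA names in RefSeq. Target sites in the transcripts of the 8 genes were not analysed here.

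The substrate of these enzymes also stands in their own promoters. The 250 bases before the RefSeq start are printed 5′ to 3′ for the 3 Tet genes, the demethylating branch, and for Dnmt3l, whose printed stretch holds fewer CG dinucleotides than theirs. Positions are those of GRCm38.p6, and the capitals mark CG dinucleotides.
Tet1, chr10:62887325-62887574, minus strand: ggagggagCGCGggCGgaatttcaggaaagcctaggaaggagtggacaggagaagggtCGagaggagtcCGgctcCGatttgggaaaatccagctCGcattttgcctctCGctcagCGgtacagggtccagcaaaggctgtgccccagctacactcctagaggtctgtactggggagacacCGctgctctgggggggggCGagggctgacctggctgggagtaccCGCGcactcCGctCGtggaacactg
Tet2, chr3:133544391-133544640, minus strand: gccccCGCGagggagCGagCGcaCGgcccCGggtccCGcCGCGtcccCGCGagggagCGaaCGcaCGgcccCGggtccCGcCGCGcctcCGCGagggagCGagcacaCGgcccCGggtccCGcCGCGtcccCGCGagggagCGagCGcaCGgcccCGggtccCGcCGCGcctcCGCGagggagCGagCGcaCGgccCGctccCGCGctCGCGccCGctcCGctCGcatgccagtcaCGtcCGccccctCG
Tet3, chr6:83441679-83441928, minus strand: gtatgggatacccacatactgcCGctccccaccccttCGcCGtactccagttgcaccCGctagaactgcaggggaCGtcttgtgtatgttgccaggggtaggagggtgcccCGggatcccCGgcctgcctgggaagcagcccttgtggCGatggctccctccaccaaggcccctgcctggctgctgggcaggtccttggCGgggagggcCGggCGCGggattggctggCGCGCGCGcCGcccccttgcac
Dnmt3l, chr10:78042037-78042286, plus strand: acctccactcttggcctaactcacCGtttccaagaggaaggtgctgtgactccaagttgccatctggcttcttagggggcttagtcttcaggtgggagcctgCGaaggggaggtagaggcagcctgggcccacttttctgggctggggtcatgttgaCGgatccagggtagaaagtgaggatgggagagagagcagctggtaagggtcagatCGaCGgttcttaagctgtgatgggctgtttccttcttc
Tet2 has 51 CG dinucleotides in this stretch, more than 99.9% of the 32851 promoter windows in the table, whose median is 6. Tet1 has 15 and Tet3 has 17, more than 72.7% and 76.5% of windows. Dnmt3l has 5 at its most upstream start, more than 44.4% of windows and so near the median, and 4 and 3 at its other starts. Dnmt3a, which has 3 listed starts, has 38, 40 and 15, and Dnmt3b, with 1 start, has 21. At the 3 listed starts of Dnmt1 the counts are 2, 7 and 26, the lowest at the most upstream start. Dnmt1 is known to be transcribed from an upstream start in oocytes, and a single probeset cannot tell its transcripts apart.

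E2F factors switch on genes needed for DNA synthesis, and their binding motif was searched as TTTGGCGC and TTTCGCGC on both strands of the full 300-base windows. Dnmt1 has 1 match to each in the window of its most downstream start, and Uhrf1 has 1 match to TTTCGCGC at its downstream start, and these matches do not overlap each other. The other 6 members have none in any window. Either motif is found in 0.813% of all windows and in the windows of 0.929% of genes. A match is a description of the letters and not a binding site.

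Signals are on the log2 scale, where 1 unit is a doubling, and no gene's level can be set against another's because probesets differ in their response. The median of all 41345 probesets was 4.62 to 4.67 on 5 arrays and 4.87 on Dor-7g replicate 1. That array correlated less well with the others (Pearson's r between 0.899 and 0.919, taken over all probesets, which are not independent) than the other arrays did among themselves (0.937 to 0.978). The values of the 8 genes in Dor-7g, the list genes that passed there and the list medians are therefore also given without it. A fit that leaves out 1 array of a group takes the spread of the array that remains from the other groups. Trophectoderm markers of the labelled tissue had signal, such as the keratin gene Krt18 (12.81 to 13.37 on the 6 arrays), and 11 to 13 of 13 lay at or above the array's median. Of 13 inner cell mass and epiblast markers 10 or 11 did so, but Sox2 and Esrrb lay below it on all 6 arrays. So did 9 or 10 of 13 markers of the uterine epithelium reach it, and these counts therefore separate the labelled tissue from others only weakly. Among markers of other cells the pan-leukocyte gene Ptprc was below the median on all 6 arrays, whereas the neutrophil gene S100a9 stood at 9.55 and 9.55 in DOX-7g, at 7.10 and 6.41 in Dor-7g and at 4.49 and 4.60 in D4-act-7g. Ly6g, another neutrophil gene, stood at 7.41 and 7.39 in DOX-7g and at 4.25 or lower on the other 4 arrays.

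**Figure D1:**
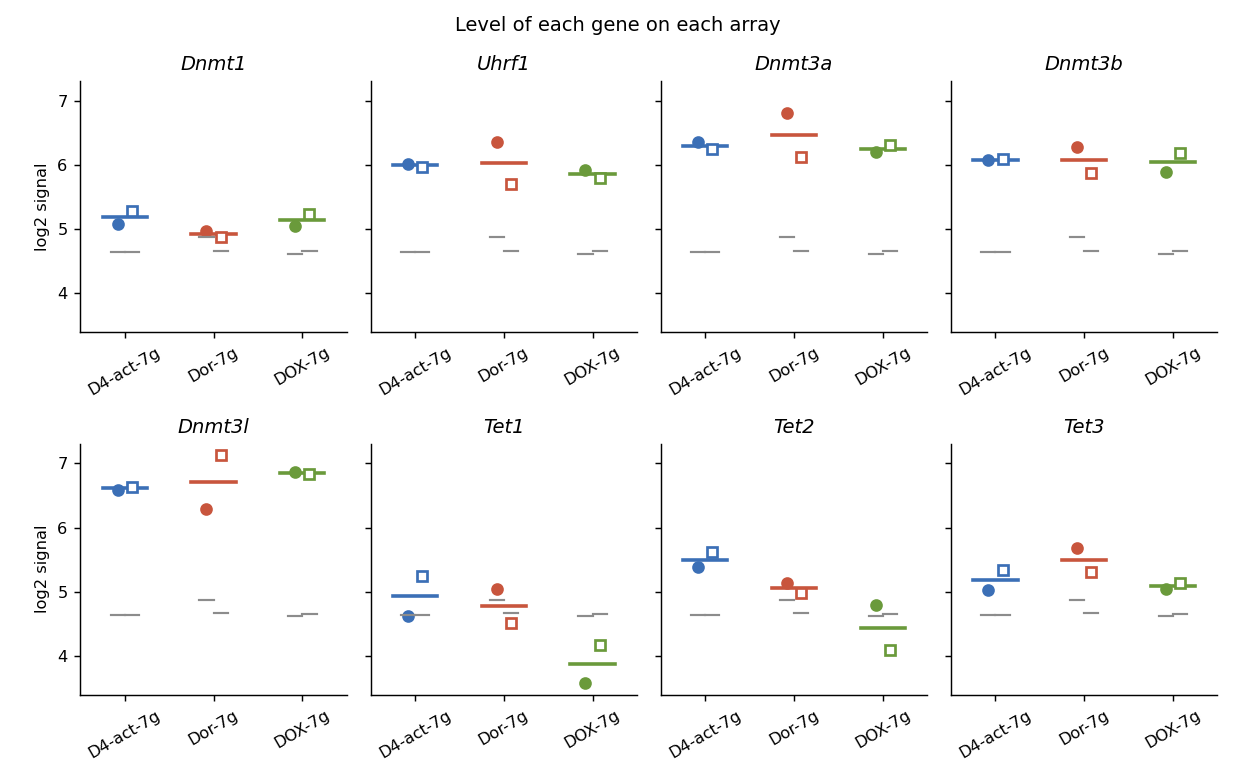
Log2 signal of each gene (vertical axis) in the 3 groups. Filled circles are replicate 1, open squares replicate 2, coloured bars the mean of both, and short grey bars each array's median over all probesets; Tet1 and Tet2 stand lowest in DOX-7g, while the points of Dor-7g lie far apart for Dnmt3l, Dnmt3a and Uhrf1.

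Dnmt1, the maintenance methyltransferase, stood at 5.08 and 5.29 in D4-act-7g, at 4.97 and 4.87 in Dor-7g and at 5.04 and 5.24 in DOX-7g. Both Dor-7g arrays were the lowest of the 6, and the other groups overlapped. It lay above the array's median on all 6. Uhrf1, its partner at the replication fork, stood at 6.02 and 5.97 in D4-act-7g, at 6.35 and 5.70 in Dor-7g and at 5.92 and 5.80 in DOX-7g. The highest and the lowest Uhrf1 values were both Dor-7g arrays, so that group enclosed the others.

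Dnmt3a, a de novo methyltransferase, stood at 6.35 and 6.25 in D4-act-7g, at 6.81 and 6.13 in Dor-7g and at 6.20 and 6.31 in DOX-7g. As for Uhrf1, the Dor-7g arrays took both ends of the range. Dnmt3b, the de novo methyltransferase of the epiblast, stood at 6.08 and 6.09 in D4-act-7g, at 6.28 and 5.87 in Dor-7g and at 5.89 and 6.19 in DOX-7g, with every group overlapping every other. Dnmt3l, the cofactor, stood at 6.58 and 6.64 in D4-act-7g, at 6.30 and 7.13 in Dor-7g and at 6.87 and 6.83 in DOX-7g. Both DOX-7g arrays were above both D4-act-7g arrays, and Dor-7g again enclosed the rest, here with replicate 1 at the low end.

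Tet1, the Tet enzyme of the inner cell mass and embryonic stem cells, reached the array's median on the fewest arrays. It stood at 4.63 and 5.25 in D4-act-7g, at 5.04 and 4.52 in Dor-7g and at 3.57 and 4.17 in DOX-7g. Only D4-act-7g replicate 2 and Dor-7g replicate 1 reached the array's median, so Tet1 passed the filter on those 2 arrays, and both DOX-7g arrays were the lowest of the 6. Signals this dim can understate a fold. Tet2 stood at 5.39 and 5.61 in D4-act-7g, at 5.14 and 4.98 in Dor-7g and at 4.79 and 4.10 in DOX-7g. The 3 groups of Tet2 did not overlap, and DOX-7g replicate 2 was its one array below the median. Tet3, the Tet enzyme of the oocyte and zygote, stood at 5.03 and 5.34 in D4-act-7g, at 5.68 and 5.30 in Dor-7g and at 5.04 and 5.13 in DOX-7g, and the highest value was again on Dor-7g replicate 1.

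The comparison of Dor-7g with D4-act-7g asks which of these genes differ between embryos dormant in the mother on day 7 and embryos activated on day 4. None of the 8 passed limma's adjusted p threshold of 0.05, against 0.984% of all genes tested, and none had an unadjusted p under 0.05, against 14.3%. The differences of group means lay between -0.45 (Tet2) and 0.31 (Tet3), with 4 genes higher and 4 lower. Their median was 0.01, beside 0.06 for all genes tested.

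Tet2 was at -0.45 ± 0.27 (SE; limma, adjusted p = 0.51), with a 95% interval of -1.11 to 0.22. Dnmt1 was at -0.27 ± 0.18 (limma, adjusted p = 0.558), with an interval of -0.72 to 0.19. Without Dor-7g replicate 1 they were at -0.53 and -0.32. These were the 2 genes of 8 whose groups did not overlap, both lower in Dor-7g, beside 45.8% of all genes tested (24.3% higher and 21.5% lower). For Tet3 the difference was 0.31 ± 0.22 (limma, adjusted p = 0.56), with an interval of -0.22 to 0.85. It was 0.12 without Dor-7g replicate 1, which held its highest value, and 0.50 without replicate 2.

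The remaining 5 members differed by 0.17 or less in either direction. The 95% interval was -0.55 to 0.53 for Dnmt3b, -0.59 to 0.65 for Uhrf1, -0.47 to 0.82 for Dnmt3a, -0.62 to 0.82 for Dnmt3l and -0.99 to 0.67 for Tet1. Differences of those sizes lie within the error, and the arrays do not show that the groups were alike. Without Dor-7g replicate 1, Dnmt3a moved from 0.17 to -0.17, Uhrf1 from 0.03 to -0.29, Dnmt3b from -0.01 to -0.21, Dnmt3l from 0.10 to 0.52 and Tet1 from -0.16 to -0.42. Without Dor-7g replicate 2, Dnmt3l moved from 0.10 to -0.32, Dnmt3b from -0.01 to 0.19 and Tet1 from -0.16 to 0.10. No direction is given for these 5 genes.

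The comparison of DOX-7g with D4-act-7g asks what differs in embryos made dormant by let-7 in culture. Again none of the 8 passed limma's adjusted p threshold of 0.05, against 0.956% of all genes tested. Tet1 and Tet2 had unadjusted p-values under 0.05, both in the lower direction, beside 11% of all genes tested and 6.4% in that direction. The mean of Tet2 in DOX-7g was lower by about 2-fold. The DOX-7g means of both genes lay below the medians of the DOX-7g arrays, where the size of a difference is uncertain. Tet3 and the 5 genes of the methylation machinery differed by 0.24 log2 units or less.

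The mean of Tet2 was 5.50 ± 0.16 in D4-act-7g and 4.44 ± 0.49 in DOX-7g (SD, n = 2 each), a ratio of 2.08. That ratio is uncertain, since the DOX-7g mean lay below the medians of both arrays, with replicate 1 at 4.79 and replicate 2 at 4.10. The difference was -1.06 ± 0.27 (SE; limma, adjusted p = 0.208). Of all genes tested 5.36% had a larger difference. Its 95% interval was -1.73 to -0.39. With 1 array left out it lay between -1.40 and -0.71, where its sign could not change because the groups did not overlap. The mean of Tet1 was 4.94 ± 0.44 in D4-act-7g and 3.87 ± 0.42 in DOX-7g (SD, n = 2 each), and its difference was -1.06 ± 0.34 (SE; limma, adjusted p = 0.319). Both DOX-7g values were below their arrays' medians of 4.62 and 4.66, and Tet1 passed the filter through arrays of the other groups alone. No ratio is therefore given, and the p-values of Tet1 are description only. The difference lay between -1.37 and -0.75 with 1 array left out. The smallest difference that passed the threshold among all genes in this comparison was 1.27, so no gene passed with a difference as small as those of Tet1 and Tet2.

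Tet3 was at -0.09 ± 0.22 (limma, adjusted p = 0.961), with an interval of -0.63 to 0.44. Dnmt3l was higher in both DOX-7g arrays, at 0.24 ± 0.29 (limma, adjusted p = 0.899). Uhrf1 was lower in both, at -0.13 ± 0.25 (limma, adjusted p = 0.952). With Tet1 and Tet2, these were the 4 of 8 genes whose groups did not overlap, 1 higher and 3 lower, beside 49.7% of all genes tested (19.2% higher and 30.5% lower). Dnmt1, Dnmt3a and Dnmt3b differed by -0.05, -0.04 and -0.04, with intervals no wider than -0.69 to 0.60. The median of the 8 genes was -0.07, beside -0.05 for all genes.

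**Figure D2:**
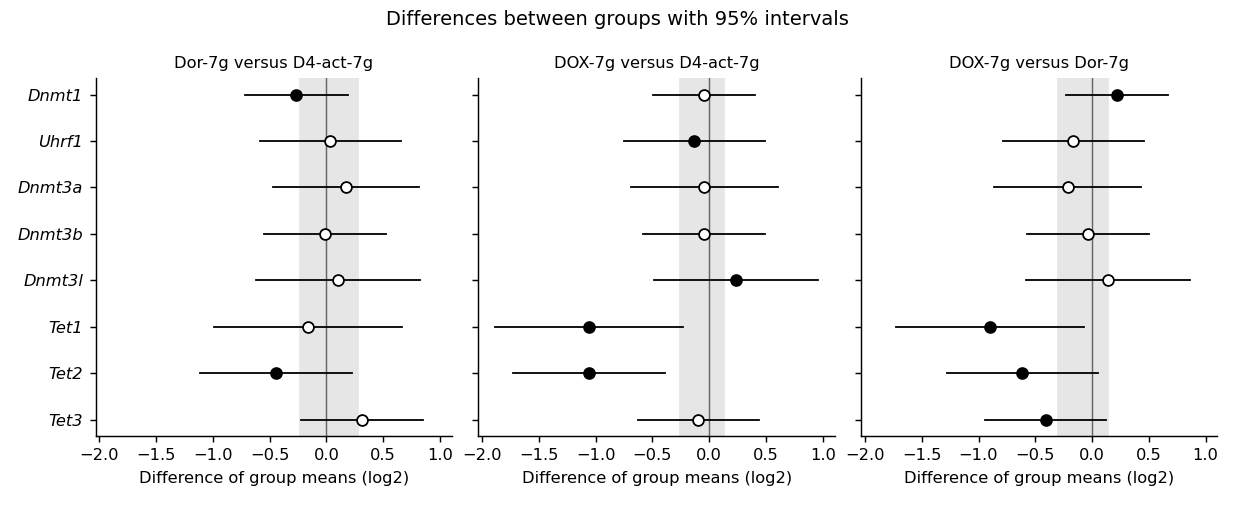
Difference of group means in log2 units (horizontal axis) for the 8 genes in the 3 comparisons. Points are estimates and lines 95% intervals from limma, filled points mark genes whose 2 groups of arrays do not overlap, and the grey band holds the middle 50% of all genes tested; the intervals of Tet1 and Tet2 lie wholly below 0 in DOX-7g versus D4-act-7g, before adjustment for the 14020 genes, with Tet1 below the median of both DOX-7g arrays.

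The last comparison sets both dormant groups against each other. With limma's adjusted p at 0.05, 0 of the 8 passed, against 1.16% of all genes tested. Only Tet1 of the 8, lower in DOX-7g, had an unadjusted p under 0.05, beside 11.6% of all genes and 5.53% in that direction. Its difference was -0.90 ± 0.34 (limma, adjusted p = 0.406). Tet1 passed the filter only through arrays of groups other than DOX-7g, Dor-7g replicate 1 among them. Its p-value and its lack of overlap here are therefore description only. Tet2 was at -0.61 ± 0.27 (limma, adjusted p = 0.462) and Tet3 at -0.41 ± 0.22 (limma, adjusted p = 0.517), so all 3 Tet genes had lower means in DOX-7g. Each of the 3, and Dnmt1 in the other direction at 0.22 ± 0.18 (limma, adjusted p = 0.644; 0.27 without Dor-7g replicate 1), had groups that did not overlap, beside 41.7% of all genes (15% higher and 26.7% lower).

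Without Dor-7g replicate 1 the differences of the Tet genes were smaller, at -0.64 for Tet1, -0.53 for Tet2 and -0.22 for Tet3. Tet2 stood at -0.27 without DOX-7g replicate 2. The median of all genes was itself -0.11 here, and quantile normalizing once more brought it to -0.05. Dnmt3a, Uhrf1, Dnmt3b and Dnmt3l differed by -0.21, -0.16, -0.03 and 0.14, and each of them changed sign without Dor-7g replicate 1, to 0.13, 0.16, 0.17 and -0.28. Both comparisons with D4-act-7g share those arrays, so their values for a gene are not independent of each other.

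**Figure D3:**
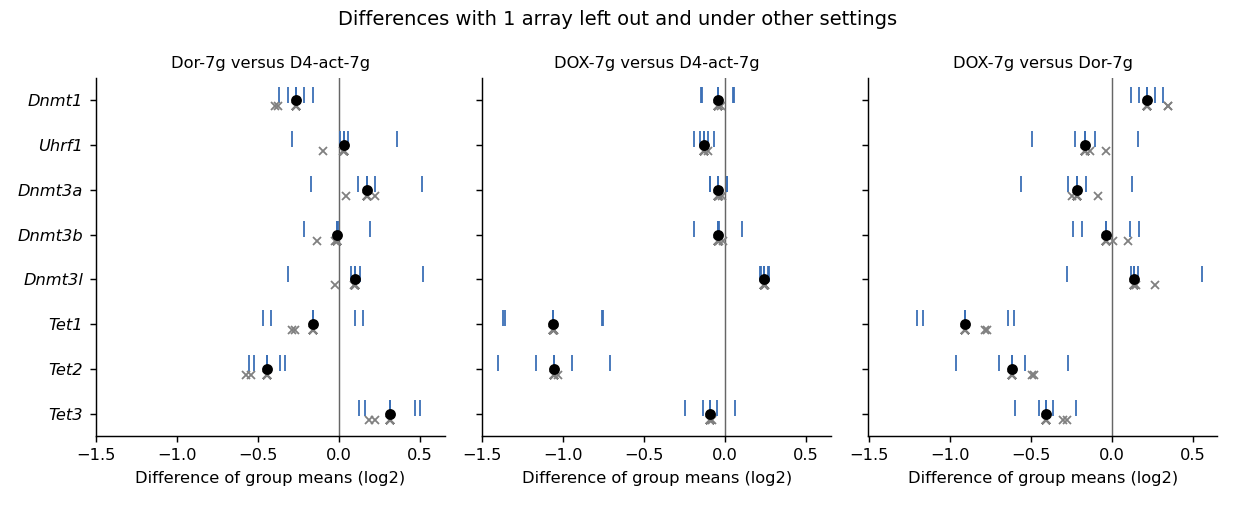
Difference of group means in log2 units (horizontal axis) for the 8 genes in the 3 comparisons. Black points are the values given in the text, blue ticks those with 1 array left out and grey crosses those under other settings. Tet1 and Tet2 lie below 0 against D4-act-7g in DOX-7g, where their groups did not overlap and no array left out could change the sign. Uhrf1, Dnmt3a, Dnmt3b and Dnmt3l lie on both sides of 0 in DOX-7g against Dor-7g.

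The genes closest in shape to each member were taken as those with the smallest root mean square difference of centred log2 values over the 6 arrays. Cenpp (0.13) and Ubxn8 (0.18) came closest to Tet1, and Ypel2 (0.12) and Zfr (0.13) to Tet2. The closest for the others were Hdlbp (0.03) for Dnmt1, Sost (0.04) for Uhrf1, Zfp287 (0.02) for Dnmt3a, Erich5 (0.02) for Dnmt3b, Cnot6l (0.04) for Dnmt3l and Clcn4 (0.04) for Tet3. The second closest were Zfp207 (0.04), Fam181a (0.05), Mapk15 (0.03), Atp13a2 (0.03), Ccdc50 (0.07) and Dtx3 (0.05). Such distances grow with a member's own spread over the arrays. As a root mean square this was 0.55 for Tet1, 0.48 for Tet2 and 0.14 (Dnmt1) to 0.26 (Dnmt3l) for the others. Smaller distances for the others thus do not mean closer matches. Within the set the most alike pair was Dnmt3a and Uhrf1 (0.09), which, like Dnmt3b, were highest on Dor-7g replicate 1 and lowest on replicate 2. Tet1 and Tet2 differed by 0.43 from each other, and DOX-7g replicate 1 was the lower array of its group for Tet1 and the higher for Tet2. Likeness over 6 arrays is a description and was not tested.

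Around the 8 genes, those that work with them were mostly below the threshold too. Of 8 partners of maintenance methylation 0 passed limma's adjusted threshold in any comparison, and 0 had an unadjusted p under 0.05, with medians of -0.01 in Dor-7g and -0.09 in DOX-7g against D4-act-7g. Unadjusted counts of the lists stand beside 14.3% of all genes in Dor-7g and 11% in DOX-7g. Among the partners Uhrf2, a relative of Uhrf1, was at 0.44 ± 0.20 and Cdca7, which activates the remodeller Hells, at 0.39 ± 0.20 in Dor-7g (limma, adjusted p = 0.39 and 0.428). Hells was at -0.36 ± 0.21 and Dmap1, a Dnmt1-binding protein, at -0.38 ± 0.20 in DOX-7g (limma, adjusted p = 0.655 and 0.618).

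Of 8 genes that guard or target methylation in the embryo, 1 passed. Dppa3 (Stella), which keeps Uhrf1 off chromatin and shields the maternal genome from Tet3, stood at 12.92 and 12.96 in D4-act-7g, at 10.63 and 10.62 in Dor-7g and at 12.05 and 11.63 in DOX-7g. The groups did not overlap, and Dor-7g was the lowest. Dppa3 fell in Dor-7g (-2.31 ± 0.20; limma, adjusted p = 0.0109). The difference was -2.32 without Dor-7g replicate 1 (limma, adjusted p = 0.0248). Without D4-act-7g replicate 1 or 2 it was -2.33 or -2.30 and no longer passed (limma, adjusted p = 0.125 and 0.109). In DOX-7g it was at -1.10 ± 0.20 and did not pass (limma, adjusted p = 0.1; adjusted p = 0.029 with array weights). The H3K9 methyltransferase gene Ehmt1 was at 0.55 ± 0.17 in Dor-7g (limma, adjusted p = 0.237), and Atf7ip, a partner of Setdb1, at -0.44 ± 0.18 in DOX-7g (limma, adjusted p = 0.454).

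No gene of 8 measured in the list of methyl-CpG readers passed limma's threshold, nor did any of 10 in that of base excision after Tet oxidation. The second list has 13 genes, of which 10 were measured, with Gadd45b among them and the glycosylase gene Tdg not. At an unadjusted p under 0.05 in limma, 1 of 8 (Mbd3) and 2 of 10 (Gadd45b and Neil2) were counted in Dor-7g and 0 in DOX-7g. Those of Dor-7g are near the share of all genes. Mbd3, a subunit of the NuRD complex, was at -0.54 ± 0.19 in Dor-7g (limma, adjusted p = 0.291) and at -0.30 ± 0.19 in DOX-7g (limma, adjusted p = 0.7). Mbd4, a glycosylase, was at 0.83 ± 0.59 in Dor-7g (limma, adjusted p = 0.568), with 6.07 and 7.93 on the 2 arrays, and at 1.76 without Dor-7g replicate 1. Zbtb4 was at -0.31 ± 0.21 in DOX-7g (limma, adjusted p = 0.725).

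Gadd45b, a stress gene linked to demethylation, stood at 9.52 and 9.54 in D4-act-7g, at 5.91 and 7.48 in Dor-7g and at 9.51 and 9.98 in DOX-7g. Both Dor-7g arrays were far below the other 4. The difference from D4-act-7g was -2.83 ± 0.51 (limma, adjusted p = 0.0843). It was -2.05 without Dor-7g replicate 1 and -3.62 without replicate 2 (limma, adjusted p = 0.0383 and 0.0039). Both fits have an SE of 0.25, since the spread between the Dor-7g arrays no longer enters, and their p-values are no support for a call. Neil2, a DNA glycosylase, was at 0.67 ± 0.19 in Dor-7g (limma, adjusted p = 0.215). Xrcc1 and Lig3, a scaffold and a ligase of base repair, were at -0.38 ± 0.18 and -0.35 ± 0.24 in DOX-7g (limma, adjusted p = 0.55 and 0.73).

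None of 6 Tet cofactor and partner genes passed in limma either, and 1 had an unadjusted p under 0.05 in Dor-7g and 0 in DOX-7g against D4-act-7g. Cxxc5, whose zinc finger relates to that of Tet1, stood at 7.10 and 7.35 in D4-act-7g, at 9.08 and 8.42 in Dor-7g and at 7.44 and 7.84 in DOX-7g. It was highest in Dor-7g, at 1.52 ± 0.29 against D4-act-7g (limma, adjusted p = 0.0972). It was 1.19 without Dor-7g replicate 1 and 1.86 without replicate 2 (limma, adjusted p = 0.108 and 0.0194), with the spread again taken from the other groups. In DOX-7g it was at 0.41 ± 0.29 (limma, adjusted p = 0.74). Ogt, the O-GlcNAc transferase that binds Tet proteins, was at 0.59 ± 0.28 in Dor-7g (limma, adjusted p = 0.407), and Dcaf1 at -0.22 ± 0.20 in DOX-7g (limma, adjusted p = 0.832).

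Of 17 genes of one-carbon metabolism and methyl donor supply 0 passed limma's threshold in any comparison, and 3 in Dor-7g and 2 in DOX-7g had an unadjusted p under 0.05 against D4-act-7g, with medians of -0.14 in Dor-7g and 0.03 in DOX-7g against D4-act-7g. Ahcy, which clears the methyltransferase inhibitor S-adenosylhomocysteine, stood at 7.97 and 8.02 in D4-act-7g, at 6.74 and 6.51 in Dor-7g and at 7.68 and 6.67 in DOX-7g. Both D4-act-7g arrays were the highest, and the difference in Dor-7g was -1.37 ± 0.34 (limma, adjusted p = 0.169). The folate enzyme gene Mthfd2 was at -0.61 ± 0.22 in Dor-7g (limma, adjusted p = 0.306) and at 0.70 ± 0.22 in DOX-7g (limma, adjusted p = 0.323). Gnmt, which uses up S-adenosylmethionine, was at 1.09 ± 0.30 in DOX-7g (limma, adjusted p = 0.241). Of 3 measured H3K36 methyltransferases, whose mark recruits Dnmt3a and Dnmt3b, none passed in limma, and 0 had an unadjusted p under 0.05. Nsd1 was at -0.05 ± 0.20 in Dor-7g and -0.49 ± 0.20 in DOX-7g, Nsd2 at 0.21 ± 0.20 in Dor-7g and Setd2 at -0.10 ± 0.18 in DOX-7g (limma, adjusted p = 0.918, 0.458, 0.673 and 0.943).

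Germline genes whose promoters are known to be silenced by methylation in somatic cells were set beside the machinery. Of 18 listed, 16 were on the arrays and 11 passed the filter on dim signals. Of the 16, 7 or 8 reached the array's median in Dor-7g and 9 or 10 in D4-act-7g and in DOX-7g, so genes could pass through those groups alone. Of 11 measured, 10 had lower means in Dor-7g than in D4-act-7g, 1 passed, and the median was -0.35, beside 0.06 for all genes. Mael, of the pathway that silences transposons in germ cells, stood at 7.47 and 6.87 in D4-act-7g, at 4.99 and 4.83 in Dor-7g and at 7.95 and 7.60 in DOX-7g. Mael fell in Dor-7g (-2.26 ± 0.26; limma, adjusted p = 0.0262) and was higher in DOX-7g than in Dor-7g (2.86 ± 0.26; limma, adjusted p = 0.0095).

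The first difference was -2.34 without Dor-7g replicate 1 (limma, adjusted p = 0.0465). It no longer passed when D4-act-7g replicate 1 (-1.96), replicate 2 (-2.56) or either DOX-7g array (-2.26) was left out, with adjusted p-values of 0.0679 to 0.162 in limma. The second was 2.94 without Dor-7g replicate 1 and no longer passed without DOX-7g replicate 1 (2.69) or 2 (3.04), at adjusted p-values of 0.0728 and 0.0621 in limma. Tex101, a germ cell surface protein gene, was at -1.55 ± 0.39 in Dor-7g (limma, adjusted p = 0.173). For DOX-7g against D4-act-7g the median of these 11 genes was -0.07. There 5 were higher and 6 lower, 0 passed limma's threshold and 2 had an unadjusted p under 0.05. There Stk31 was at -0.71 ± 0.17 and Asz1 at -0.96 ± 0.38 (limma, adjusted p = 0.186 and 0.449).

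Dnmt1 and Uhrf1 are known to be transcribed with the genes of S phase, so these were set beside them. Of 17 measured S-phase genes 15 had lower means in Dor-7g and all 17 in DOX-7g than in D4-act-7g, with medians of -0.51 and -0.60, beside 0.06 and -0.05 for all genes. In Dor-7g the nucleotide supply genes Rrm2 (-2.05 ± 0.22) and Tk1 (-1.93 ± 0.24) fell (limma, adjusted p = 0.0223 and 0.0302). Without Dor-7g replicate 1 they were at -2.20 and -1.67 (limma, adjusted p = 0.0301 and 0.0383). None passed in limma in DOX-7g, where 8 had an unadjusted p under 0.05. There Rrm2 was at -1.47 ± 0.22 and the cyclin gene Ccne1 at -0.66 ± 0.17 (limma, adjusted p = 0.0598 and 0.216). Rrm2 passed there with the mean of its probesets, at -1.59 (limma, adjusted p = 0.0377). It also passed at -1.47 with array weights and with 2 groups in the fit (limma, adjusted p = 0.0137 and 0.0417). In the fit of 2 groups the spread between the Dor-7g arrays does not enter. The difference stayed at -1.47 with either Dor-7g array left out. In 11 of 16 alternatives Rrm2 did not pass there.

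The count of S-phase genes past the threshold in Dor-7g was 7 without Dor-7g replicate 2, 2 without replicate 1, 1 with either DOX-7g array left out and 0 with either D4-act-7g array left out. Dnmt1 and Uhrf1 stood at -0.27 and 0.03 in Dor-7g and at -0.05 and -0.13 in DOX-7g, nearer to 0 than the S-phase medians. Without Dor-7g replicate 1 they were at -0.32 and -0.29 in Dor-7g. Their 95% intervals in Dor-7g (-0.72 to 0.19 and -0.59 to 0.65) hold the S-phase median of -0.51. In DOX-7g the interval of Uhrf1 (-0.75 to 0.49) holds the median of -0.60, and that of Dnmt1 (-0.50 to 0.41) does not. Whether these 2 genes differ from the S-phase genes was not tested. Either E2F motif was found in the promoter windows of 7 of the 16 S-phase genes matched to the RefSeq table. It was also found in those of both Dnmt1 and Uhrf1.

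**Figure D4:**
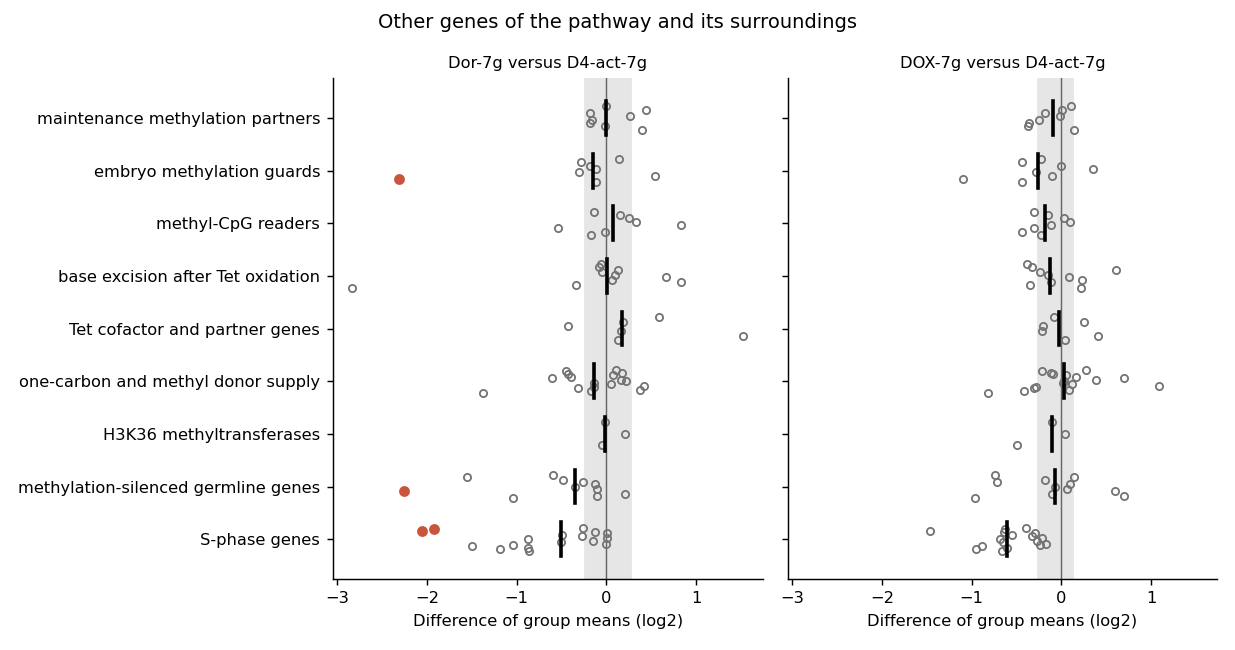
Difference from D4-act-7g in log2 units (horizontal axis) for each measured gene of 9 lists, in Dor-7g and in DOX-7g. Circles are genes, red where limma's adjusted p was under 0.05, black bars list medians and the grey band the middle 50% of all genes tested; Dppa3, Mael, Rrm2 and Tk1 are the red points, all in Dor-7g, and the S-phase medians lie left of the band in both panels.

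Without Dor-7g replicate 1 the list medians in Dor-7g against D4-act-7g were 0.0018 for the maintenance methylation partners, -0.06 for the embryo methylation guards, 0.0039 for the methyl-CpG readers, 0.05 for base excision and 0.32 for the Tet cofactor and partner genes. They were -0.10 for one-carbon and methyl donor supply, 0.08 for the H3K36 methyltransferases, -0.48 for the germline genes (9 of 11 lower) and -0.39 for the S-phase genes (14 of 17 lower). The last pair thus stayed farthest below 0.

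Levels in a whole blastocyst mix its lineages, so fewer cells of a type and less RNA per cell cannot be told apart. Of 11 measured inner cell mass and epiblast markers 10 had lower means in DOX-7g than in D4-act-7g, with a median of -0.41, beside -0.05 for all genes. Of these 11, 0 passed limma's threshold and 3 had an unadjusted p under 0.05, all lower, beside 6.4% of all genes in that direction. Averaged over the 13 markers on the arrays, the log2 level was 6.15 and 6.21 in DOX-7g, 6.35 and 6.74 in Dor-7g and 6.75 and 6.53 in D4-act-7g. This average moved in the same direction as Tet1 and Tet2, and its part in their differences was not tested. The oocyte and cumulus markers went the same way, with 7 of 7 measured lower in DOX-7g, a median of -0.31 and 3 at an unadjusted p under 0.05 in limma. The trophectoderm markers had a median of 0.11 and the primitive endoderm markers one of 0.11 in the same comparison. Of 13 trophectoderm markers 3 had an unadjusted p under 0.05 in limma, all higher in DOX-7g. Over 10 blood and immune markers the average was 6.35 to 6.50 in DOX-7g, 5.14 to 5.55 in Dor-7g and 4.81 to 5.03 in D4-act-7g. S100a9 and Ly6g passed the threshold in DOX-7g, and S100a9 also in Dor-7g against D4-act-7g (2.21 ± 0.26 in limma, adjusted p = 0.0274). The S100a9 difference in Dor-7g was 1.87 without Dor-7g replicate 1. It did not pass with 2 groups in the fit or with the replicate block (limma, adjusted p = 0.0837 and 0.059). Ly6g passed the filter on dim signals through the 2 DOX-7g arrays alone, and S100a9 through the 4 arrays of day 7 alone. Both genes thus entered the tests through the groups where they are high, and their calls are description only. S100a8, another neutrophil gene, stood at 3.28 and 3.16 in D4-act-7g, at 2.81 and 7.18 in Dor-7g and at 10.91 and 10.12 in DOX-7g. The macrophage gene Cd68 was at 7.41 and 6.87 in DOX-7g and 8.04 and 9.34 in D4-act-7g. Itgam, a myeloid gene that neutrophils also express, was at 4.23 and 4.28 in DOX-7g and 4.15 and 4.38 in D4-act-7g, below the median on every array. The higher blood and immune average in DOX-7g thus rests mainly on S100a8, S100a9 and Ly6g. Over 13 markers of the uterine epithelium the average was 5.57 to 5.71 in DOX-7g, 5.49 to 5.66 in Dor-7g and 5.21 to 5.29 in D4-act-7g. Over 10 of the uterine stroma it was 4.82 to 4.85, 5.17 to 5.55 and 4.76 to 4.79 in the same order. In the last list Dcn, a matrix protein gene of stroma, was at 9.29 on Dor-7g replicate 2 and at 3.67 to 4.22 on the other 5 arrays, and Lum, a related gene, was also highest there, at 5.01. Over 11 oocyte and cumulus markers it was 5.14 to 5.21, 5.31 to 5.40 and 5.47 to 5.67. The part of these markers in the values above was not tested.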

How the data were processed

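The study ran 6 Mouse Gene ST arrays, for which the authors deposited 1 log2 value per probeset and array; Partek 6.6 and RMA are named, with no roles or settings, per the submitters' processing notes. RMA is a method that corrects background, normalizes arrays and summarizes probes, and this evens out differences between arrays. RNA came from 10 lysed blastocysts an array, per the labels' protocols. The sources used here name no genome build for the probesets. Depth does not apply to arrays, and their number limits the precision.

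Sample titles gave the groups. Gene names are those of the platform annotation, with symbols updated by Entrez identifier from RefSeq's GRCm38.p6 gene table: 23521 of 41345 had 1 symbol, 1814 several and 16010 none here. Of those with 1 symbol, probesets at or above the array's median on at least 2 arrays were kept, and the brightest stood for its gene (14020 genes). A single limma 3.58.1 model (R 4.3.3) of all 6 arrays estimated each group's mean, with eBayes (3 residual and 2.81 prior degrees of freedom). Benjamini-Hochberg adjustment ran over all 14020 genes, with a threshold of 0.05. The script was tested on simulated data. There an added difference of 1 log2 unit was recovered in 8% of changed genes for Dor-7g and 16% for DOX-7g against D4-act-7g. For DOX-7g against Dor-7g it was 8%. With 2 units these were 96%, 94% and 90%. A difference near 1 unit would thus mostly be missed in such data.

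RefSeq copies named Dnmt3a-ps1, Dnmt3b-ps1 (also Dnmt3c) and Dnmt3l-ps1 exist, and whether their transcripts reach the parents' probes was not tested. Sequences are from RefSeq tables of GRCm38.p6, where all 8 genes matched. The members, the 9 pathway and 7 marker lists and the tests were chosen with earlier results of these data known. Named genes were the members, list genes past the threshold, the 2 with the smallest p of each pathway list in each comparison with D4-act-7g, and the 2 closest in shape. Krt18, Sox2, Esrrb, Ptprc, S100a8, Cd68, Itgam, Dcn and Lum were named after their values were seen. Tdg is named although it has no value here. Alternatives covered normalization, filters, the probeset rule, the variance model, array weights, the groups in the fit, a replicate block and leaving out each array.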

Additional observations from a re-analysis of the deposited data

How the results depend on the processing

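None of the 8 genes passed limma's threshold in any comparison under the 17 alternatives, where 365 of 386 values kept their direction, and Tet1 and Tet2 in DOX-7g against D4-act-7g stayed negative with adjusted p-values of 0.134 to 0.927 and 0.0804 to 0.766. Requiring all 6 arrays at or above the median left Tet1 and Tet2 without a value. A variance trend, array weights, 2 groups in the fit, a replicate block or an array left out of the third group leave a difference of means as it was. Those settings could not change a direction, so the count of 365 overstates how stable the directions are. Leaving out 1 array could not do so either for Tet1 and Tet2 in DOX-7g against D4-act-7g, whose groups did not overlap. The other 21 values changed sign. With each array centred on its median, Dnmt3l (-0.028) and Uhrf1 (-0.10) did so in Dor-7g against D4-act-7g and Dnmt3b (0.099) in DOX-7g against Dor-7g, where quantile normalizing once more also turned Dnmt3b (0.0072). With 1 array left out, the values in Dor-7g against D4-act-7g ranged from -0.17 to 0.52 for Dnmt3a, -0.21 to 0.19 for Dnmt3b, -0.32 to 0.52 for Dnmt3l, -0.29 to 0.36 for Uhrf1 and -0.47 to 0.15 for Tet1. In DOX-7g against D4-act-7g they ranged from -0.15 to 0.057 for Dnmt1, -0.097 to 0.011 for Dnmt3a, -0.19 to 0.11 for Dnmt3b and -0.25 to 0.060 for Tet3. In DOX-7g against Dor-7g they ranged from -0.56 to 0.13 for Dnmt3a, -0.24 to 0.17 for Dnmt3b, -0.28 to 0.56 for Dnmt3l and -0.49 to 0.16 for Uhrf1. Among other named genes, whose alternatives were added after seeing the data, Nsd1 in Dor-7g was at 0.14 after quantile normalizing again and ranged from -0.18 to 0.078, and Mbd4 from -0.10 to 1.76, with 1 array left out.

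The counts over all genes (genes called: 138 for Dor-7g and 134 for DOX-7g against D4-act-7g, 163 for DOX-7g against Dor-7g) moved more, and the cause was not tested. With 1 array left out they ranged from 11 to 1172, from 43 to 296 and from 67 to 880. They were 79, 461 and 104 with array weights and 86, 296 and 86 with 2 groups in the fit, and requiring all 6 arrays at or above the median gave 68 and 81 for DOX-7g against D4-act-7g and against Dor-7g. With the replicate number as a block they were 82, 90 and 116, with 0 of the 8 genes past the threshold, and Rrm2 in Dor-7g no longer passed (limma, adjusted p = 0.059). The labels do not say whether a replicate number marks a shared litter or day. Deviations of same-numbered arrays correlated at -0.14, -0.01 and -0.02, which with so few arrays a group cannot exclude one. A crossed pairing of DOX-7g and Dor-7g, added after seeing the data, gave 127 genes. Tk1 in Dor-7g did not pass with a variance trend or array weights (limma, adjusted p = 0.0604 and 0.0511), nor Mael with array weights (0.0848). Tet1, under the array's median on 4 arrays, is limited by signal over background.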
